A study of Oryza sativa with 20 samples.

Results

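A set of 163 rice genes stood higher in fed leaves at 6 h and at 24 h of feeding by the leaf folder C. medinalis, but stood near the unfed level at 12 h. They were 163 of the 20343 rice loci (identifiers beginning with OS) that reached an FPKM of 0.5 in 4 or more of the 20 libraries, out of 37830 such loci listed. FPKM is a read level scaled by gene length and by library size. The level of a gene at a time point was the mean of log2(FPKM + 1) over 4 libraries. The set was selected on these levels, and a gene entered it when its 6 h and 24 h means each exceeded the 0 h mean by at least 0.8, and its 12 h mean exceeded it by less than 0.4. The genes were thus chosen by their 0, 6, 12 and 24 h values, and those differences are given below as descriptions with no test. Of 463 loci that passed the limits for 6 h and 24 h, these 163 had the low 12 h level, 159 had a 12 h difference from 0.4 to under 0.8, and 141 were at least 0.8 higher at 12 h too.

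RNA was sequenced from the second leaf from the top of 5-week-old Minghui 63 rice plants, with 4 libraries at each of 5 feeding times. For each library, leaves from 5 plants were combined. In the 1, 6, 12 and 24 h groups, 1 larva of the third instar, starved for 2 h, was enclosed with the leaf in a Parafilm bag. Leaves of the 0 h group were bagged with no insect. All leaves were cut at the same moment, so the larvae had been added at staggered times, and the groups differ in the hour at which feeding began. A single larval stage and rice strain were used, and 1 unfed group, cut with the others, served every feeding time. Each library held 17796563 to 22090181 fragments on genes.

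Chewing larvae set off a wound response in rice in which jasmonic acid (JA) is made from membrane fatty acids by lipoxygenase (LOX) and the enzymes after it, allene oxide synthase (AOS), allene oxide cyclase (AOC) and 12-oxophytodienoate reductase (OPR), and then by oxidation in peroxisomes. Its conjugate with isoleucine removes the JAZ repressors and frees transcription factors such as MYC2, and JAZ genes are themselves among the targets. Mitogen-activated protein kinases such as OsMPK3 and WRKY transcription factors act in the same response.

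Libraries of the same time point differed widely in these genes, at 6 h and 24 h above all. The median over the 163 genes of the difference from the 0 h mean was 0.42, 1.66, 1.37 and 1.13 on the log2 scale in 6 h replicates 1 to 4. It was 0.50, 1.52, 1.72 and 0.86 in 24 h replicates 1 to 4. Replicate 1 was thus the lowest of its time point at both times. The 0 h libraries were at -0.38, 0.10, -0.18 and 0.23, the 1 h libraries at 0.28, 0.26, 0.32 and 0.44, and the 12 h libraries at 0.23, 0.06, 0.23 and 0.03. Replicate 1 of 6 h lay above every 12 h library in this median, but by less than the gap to the other 6 h libraries. For 0, 1, 6, 12 and 24 h in turn, the mean over libraries was -0.06 ± 0.27 (SD, n = 4 each), 0.33 ± 0.08, 1.15 ± 0.53, 0.14 ± 0.10 and 1.15 ± 0.57. In depth, 6 h replicate 1 held 18708548 fragments and the other 6 h libraries 18510166 to 18664756. At 24 h, replicate 1 held 19922269, between the 18897874 and 22090181 of the others. The mean deviation of all tested OS loci from the time point mean was -0.05 in 6 h replicate 1 and -0.02 in 24 h replicate 1. The cause of the low replicates was not tested. In bulk leaf, fewer cells expressing a gene and less RNA per cell cannot be told apart.

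**Figure D1:**
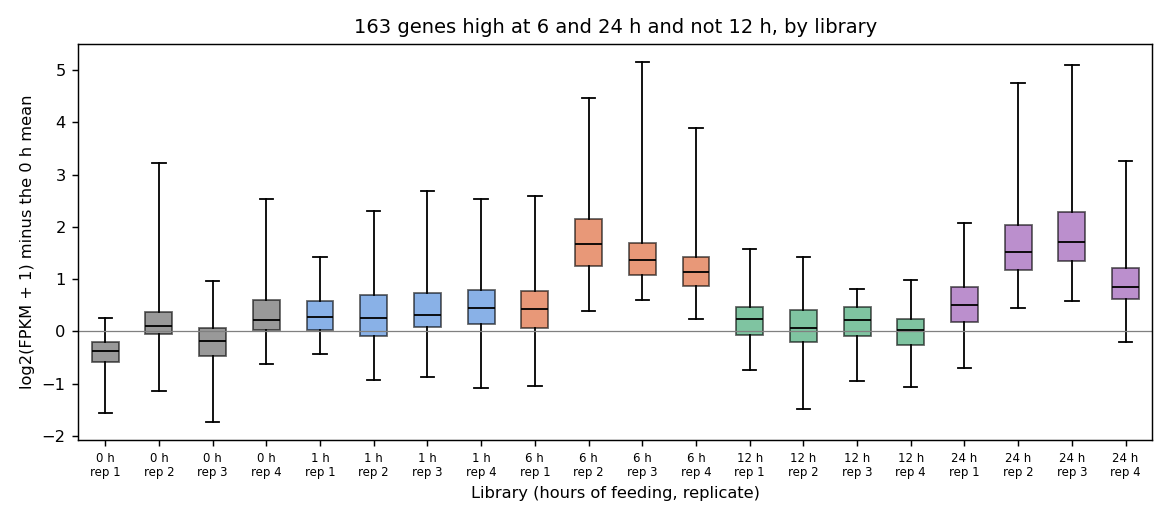
Difference from the 0 h mean, log2(FPKM + 1), of the 163 genes in each of the 20 libraries, with boxes for the quartiles, a line for the median and whiskers to the lowest and highest gene. Replicate 1 of 6 h and replicate 1 of 24 h had medians of 0.42 and 0.50, while the other 6 h and 24 h libraries ranged from 0.86 to 1.72.

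Over the 163 genes, the median difference from 0 h was 1.13 at 6 h (range 0.80 to 3.71), 0.21 at 12 h (range -0.69 to 0.40) and 1.13 at 24 h (range 0.80 to 3.63). Among all tested OS loci the corresponding medians were 0.11, -0.03 and 0.03. The drop from the mean of the 6 h and 24 h levels to the 12 h level had a median of 1.02 and ran from 0.46 to 3.11. At 12 h, 124 genes were above their 0 h mean and 39 below it. Without 6 h replicate 1 the median 6 h difference was 1.39, and without 24 h replicate 1 the median 24 h difference was 1.35.

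All 4 libraries at 6 h lay above all 4 at 0 h in 76 of the 163 genes, where 21.4% of the 24058 identifiers tested did so. At 24 h this held for 70 genes, beside 14.1% of all identifiers. Since the same contrasts chose the genes, nothing is read from these shares. At 12 h, 7 genes had all libraries above 0 h (7.84% of all identifiers) and 1 had all below (11.6%). All 6 h libraries lay above all 12 h libraries in 64 genes (25.5%), and all 24 h libraries did so in 89 (9.53%), contrasts that also follow from the rule. By library, 78 genes exceeded their highest 0 h library in 6 h replicate 1, and 155, 145 and 137 did so in replicates 2, 3 and 4. At 24 h the numbers were 73, 156, 159 and 122. Of the 12 h libraries, none had more than 50 such genes, and replicate 4 had 35.

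The limits cut through a continuous range. The nearest genes inside and outside the 6 h limit had differences of 0.8001 and 0.7921, those at the 24 h limit 0.8044 and 0.7973, and those at the 12 h limit 0.3999 and 0.4024. Within 0.1 of at least 1 limit lay 88 of the 163 genes. When 1 library at a time was left out, the rule gave from 118 genes (without 24 h replicate 3) to 208 (without 6 h replicate 1), and 29 of the 163 were kept in every such case. These 29 had median differences from 0 h of 1.32, 0.01 and 1.32 for 6, 12 and 24 h. Without both low libraries, 6 h replicate 1 and 24 h replicate 1, the rule gave 264 genes, 162 of them from the set.

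Identifiers were paired with gene names only where the study's paper names them, and 3 of the 163 genes had such a name. The names available cover JA synthesis, JA signalling, calcium signalling, kinases and WRKY factors only, so they say nothing of what the other genes do. OsWRKY53 is a WRKY transcription factor that interacts with OsMPK3 in rice, OsMPK3 is a mitogen-activated protein kinase, and the LOX at OS04G0447100 belongs to the lipoxygenases that add oxygen to polyunsaturated fatty acids.

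OsWRKY53 (OS05G0343400, chromosome 5) was the most abundant of these. Its FPKM was 122, 205, 115 and 220 in 0 h replicates 1 to 4, 209, 164, 170 and 215 at 1 h, and 243, 501, 359 and 292 at 6 h. At 12 h it was 183, 111, 170 and 108, and at 24 h it was 267, 320, 416 and 283. Every 6 h and 24 h library lay above every library of 0 h and 12 h, low replicates included, while the 12 h range overlapped the 0 h range. Mean FPKM for 0, 1, 6, 12 and 24 h was 165 ± 54.8 (SD, n = 4 each), 190 ± 26.2, 349 ± 112, 143 ± 39.2 and 322 ± 66.9. The 6 h and 24 h means were 2.11 and 1.95 times the 0 h mean, and the 12 h mean 0.865 times. OsWRKY53 was among the 29 genes kept whichever library was left out.

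OsMPK3 (OS03G0285800, chromosome 3) had FPKM values of 11.6, 18.3, 9.77 and 19.7 in the 0 h replicates and 18.2, 13.1, 16.5 and 16.3 at 1 h. They were 12.6, 48.8, 27.5 and 26.0 at 6 h, 16.9, 14.6, 19.99 and 13.5 at 12 h. In the 24 h replicates they were 26.9, 39.6, 61.5 and 36.9. All 24 h libraries lay above all others except those of 6 h replicates 2 and 3, whereas 6 h replicate 1 lay within the 0 h range. The 1, 6, 12 and 24 h differences from 0 h were 0.15, 0.82, 0.16 and 1.41, so the gene sat just inside the 6 h limit and was lost from the set when some single libraries were left out.

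The LOX at OS04G0447100 (chromosome 4) had FPKM values of 6.79, 12.2, 8.43 and 9.46 at 0 h and 13.6, 12.6, 11.3 and 14.2 at 1 h. Its values were 8.62, 33.2, 23.9 and 15.98 at 6 h, 12.7, 9.91, 13.8 and 11.04 at 12 h. In the 24 h replicates they were 10.7, 20.5, 41.1 and 21.01. Replicate 1 lay within the 0 h range at 6 h and at 24 h, and the other 6 h and 24 h libraries lay above every 0 h and 12 h library. Mean FPKM for 0, 1, 6, 12 and 24 h was 9.22 ± 2.27 (SD, n = 4 each), 12.9 ± 1.28, 20.4 ± 10.5, 11.9 ± 1.73 and 23.3 ± 12.8. The 6, 12 and 24 h differences from 0 h were 0.94, 0.35 and 1.13, and the gene was lost from the set when some single libraries were left out.

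A pair of genes without a name marked the extremes of the set. OS08G0374600 had the largest value for the smaller of the 6 h and 24 h differences. It was nearly silent at 0 h, with 0, 6, 1 and 1 fragments in replicates 1 to 4, and had 19, 40, 67 and 14 fragments at 1 h and 20, 265, 432 and 176 at 6 h. It was back to 9, 1, 7 and 6 fragments at 12 h, and had 10, 130, 493 and 43 at 24 h. At 24 h, replicate 1 was near the highest 12 h library, and replicate 3 held more fragments than the other 24 h libraries combined. Its 1, 6, 12 and 24 h differences from 0 h were 1.70, 3.71, 0.39 and 2.81. It lay just inside the 12 h limit and was also lost when some single libraries were left out.

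OS03G0734500 had the largest drop to 12 h. Its FPKM was 0.62, 13.6, 0.60 and 9.42 in the 0 h replicates. The 1 h replicates had 4.07, 11.6, 8.32 and 8.99, and the 6 h replicates 2.84, 25.2, 19.5 and 14.9. At 12 h it was 2.35, 0.595, 2.52 and 2.09, far below the higher 0 h libraries, and at 24 h it was 10.02, 76.8, 106 and 32.6. The 0 h libraries themselves fell apart into a high pair, replicates 2 and 4, and a low pair, replicates 1 and 3. Its difference from 0 h was -0.69 at 12 h and 3.23 at 24 h. It was also kept whichever library was left out.

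**Figure D2:**
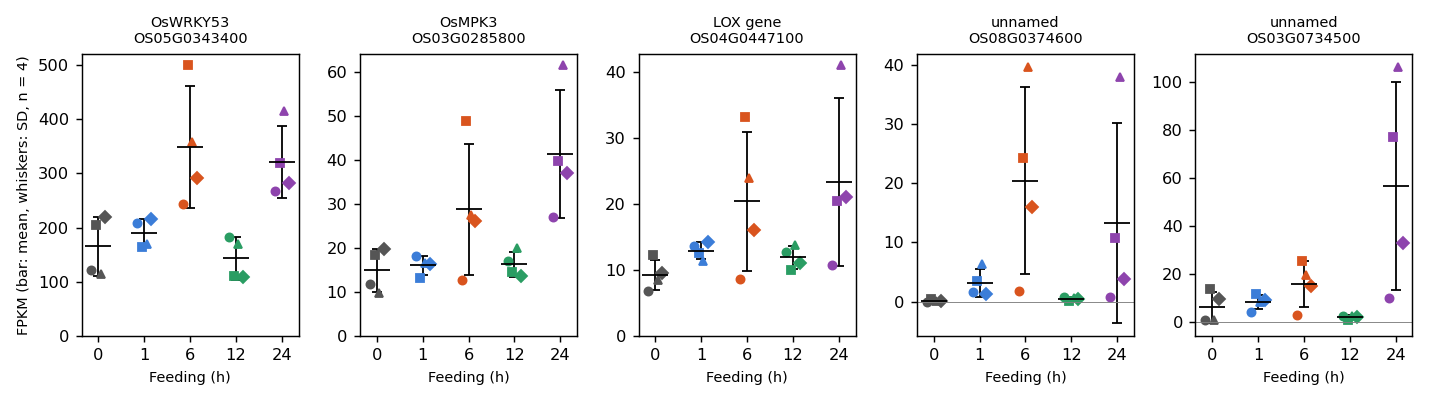
FPKM on linear axes by hours of feeding for OsWRKY53, OsMPK3, the LOX at OS04G0447100 and the unnamed OS08G0374600 and OS03G0734500, with circles, squares, triangles and diamonds for replicates 1 to 4, a bar for the mean and whiskers for the SD (n = 4). The 6 h and 24 h points of OsWRKY53, from 243 to 501, all lie above its 12 h points, from 108 to 183, while replicate 1 of OsMPK3 at 6 h lies among the 0 h points.

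The 6 h and 24 h differences had similar medians, which the rule favours, as it set the same floor of 0.8 at both times. The difference of 24 h from 6 h had a median of -0.01 over the 163 genes, with 77 genes higher at 24 h and 86 higher at 6 h, and it ranged from -1.47 to 1.71. All 24 h libraries lay above all 6 h libraries in 1 gene, beside 8.04% of all identifiers, and below them in 2, beside 19.3%. Both times chose the genes and had a wide replicate spread, so nothing is read from these shares. At least 0.8 higher at 24 h than at 6 h were 16 genes, and at least 0.8 higher at 6 h were 4. Of those 16 genes, 12 had a 12 h mean below 0 h, with a median 12 h difference of -0.24, against 27 of the other 147, whose median was 0.23. In these 16 genes the 0 h replicates 2 and 4, at medians of 0.77 and 1.04, stood well above replicates 1 and 3, at -0.98 and -0.83. OS03G0734500, itself 1 of these 16 genes, had the same high and low pairs of 0 h libraries.

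The 1 h libraries took no part in choosing the genes, although the 0 h libraries they are compared with did, so this comparison is not independent of the rule. At 1 h the median difference from 0 h was 0.36 (quartiles 0.14 and 0.60), and 141 of 163 genes were above 0 h, or 86.5%, beside 52.8% of all tested OS loci, whose median was 0.01. Even so, few single genes passed the test. In limma-trend over all 24058 identifiers, at a false discovery rate (FDR, Benjamini-Hochberg) under 0.05, 3 of the 163 genes were higher at 1 h, or 1.84%, beside 1.77% of all identifiers, so the share was near the background. None of the 163 was lower, beside 1.29% of all. At an unadjusted p under 0.05, 26 were higher, or 15.95% beside 10.62% of all tested OS loci. At that level 0 were lower, beside 1633 of the 20343 tested OS loci. limma-voom on recovered fragments called 4 higher, beside 1.96% of all identifiers, and 0 lower, beside 1.49%. The count of 3 went to 0 when 0 h replicate 1, 2 or 3 or 1 h replicate 4 was left out, and to 1 for 1 h replicate 1 or 3. In those fits 0.998% to 1.33% of all identifiers were called higher. It was 9 with only the 0 h and 1 h libraries in the fit (1.25% of all identifiers) and 6 with a pseudocount of 0.1 (1.96% of all). All 4 libraries at 1 h lay above all 4 at 0 h in 26 genes, beside 5.91% of all identifiers.

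Neither the named genes of the set nor the unnamed pair described above passed this test. The 1 h difference was 0.25 for OsWRKY53 (SE 0.25, FDR 0.681 in limma-trend), 0.15 for OsMPK3 (FDR 0.87), 0.47 for the LOX at OS04G0447100 (FDR 0.537), 1.70 for OS08G0374600 (FDR 0.269) and 0.98 for OS03G0734500 (FDR 0.585). These differences moved with single 0 h libraries. Without 0 h replicate 3 or 4 they were 0.09 and 0.40 for OsWRKY53 (OS05G0343400) and -0.02 and 0.29 for OsMPK3 (OS03G0285800), and without 0 h replicate 3 or 2 they were 0.48 and 1.55 for OS03G0734500. For OS08G0374600, low at 0 h, the difference was 3.71 with a pseudocount of 0.1. Every one of the 163 genes had a lower mean at 1 h than at 6 h, and 119 had a lower mean at 12 h than at 1 h.

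The 1 h values of other sets of loci are given for comparison. In the 141 loci at least 0.8 above 0 h at 6, 12 and 24 h, the median 1 h difference was 1.00 and limma-trend called 65 higher, or 46.1%, beside 2.05% of all tested OS loci. In the 248 loci at least 0.8 above 0 h at 6 h alone, with 12 h and 24 h each less than 0.4 above, the median was 0.30. Of these, 13 were called higher, or 5.24%, and 4 lower, beside 416 and 296 of the 20343 tested OS loci. These sets share the 0 h libraries, and the difference between them was not tested.

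**Figure D3:**
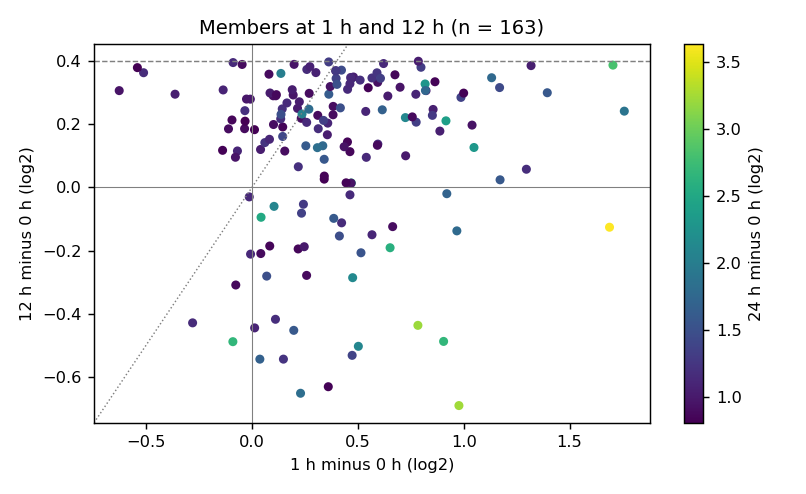
Difference from 0 h at 12 h plotted against that at 1 h, in log2(FPKM + 1), for each of the 163 genes, coloured by the 24 h difference, with a dashed line at the 12 h limit of 0.4 and a dotted line at equal values. Of the genes, 141 lie above 0 on the 1 h axis, and 119 have a 12 h value below their 1 h value, where the rule held the 12 h value under 0.4.

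The genes of JA synthesis and signalling that the study named were mostly outside the set, as were most tested OS loci. Their names were read from the labels of a pathway figure, as was that of the LOX at OS04G0447100, so single identifiers may be misread, and the study chose this list on these libraries, so that it is not independent evidence of a direction. Of 35 such loci, 34 passed the filter on low FPKM, and the AOS at OS03G0767000 did not. Of the 34, 1 was in the set, the LOX at OS04G0447100, beside 0.801% of all tested OS loci. Nothing is read from a count of 1. The 6 h and 24 h limits were met by 14 of the 34, beside 463 of the 20343 tested OS loci. Of these 14, 13 exceeded the 12 h limit, and the loci outside the 14 failed at 6 h or 24 h. In all, 24 of the 34 had a 12 h mean below both their 6 h and their 24 h mean. At 1 h, limma-trend called 10 of the 34 higher, beside 1.77% of all identifiers.

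Among 12 loci of JAZ, the repressors of JA signalling, 9 met the 6 h and 24 h limits and none of these 9 met the 12 h limit. The drop to 12 h had a median of 1.46 over the 12 loci (range -0.03 to 2.83), while their median 12 h difference from 0 h was 1.02. The JAZ locus OS03G0180800 had differences of 1.51, 3.07, 0.47 and 3.54 at 1, 6, 12 and 24 h. The JAZ locus OS10G0391400 had 2.40, 2.68, 0.45 and 3.17. Both lay just above the limit at 12 h, after drops of 2.83 and 2.47.

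**Figure D4:**
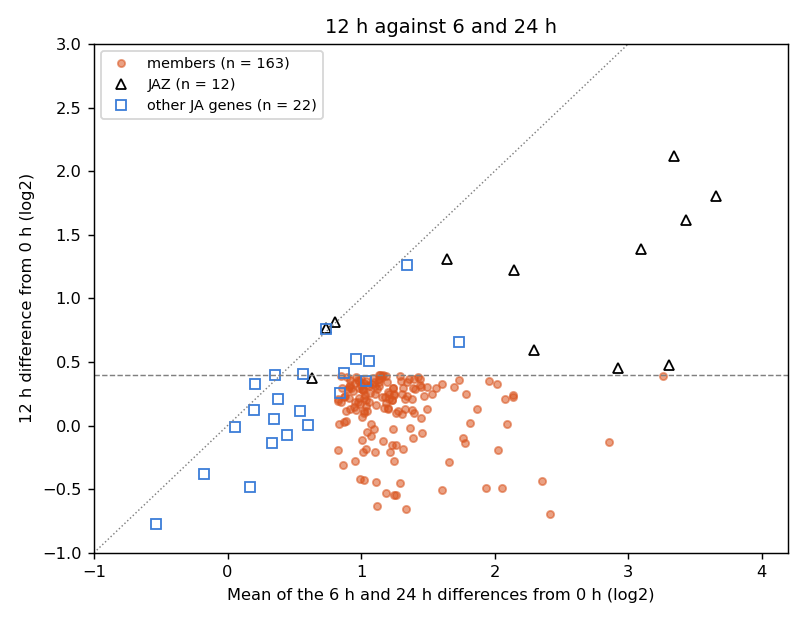
Difference from 0 h at 12 h plotted against the mean of the 6 h and 24 h differences, both in log2(FPKM + 1), for the 163 genes (filled circles), 12 JAZ loci (triangles) and the other JA loci named in the study (squares, among them the LOX at OS04G0447100, which is also a circle). The dashed line is the limit of 0.4 and the dotted line marks equal values; of the 9 JAZ loci that met the 6 h and 24 h limits, all lie above the dashed line, 3 of them under 0.8.

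Of 21 loci of JA synthesis past the filter, 5 met the 6 h and 24 h limits. AOC (OS03G0438100) had differences of 0.71, 1.07, 0.51 and 1.05 at 1, 6, 12 and 24 h, and the OPR at OS08G0459600 had 0.55, 1.03, 0.52 and 0.90. Each missed the set at 12 h alone. For the 3-ketoacyl-CoA thiolase (KAT) at OS10G0457600, an enzyme of peroxisomal oxidation, they were 0.49, 0.96, 0.41 and 0.79. Other loci of these enzymes had other courses. Differences for those times were -0.17, 0.56, -0.48 and -0.22 for the KAT at OS02G0817700, -0.05, 0.21, -0.38 and -0.57 for the OPR at OS01G0369900, and -0.11, -0.39, -0.77 and -0.67 for the LOX at OS02G0194700. The transcription factor MYC2 (OS10G0575000) had 0.63, 0.94, 0.26 and 0.75 and missed at 24 h alone.

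Of 8 signalling loci that the study named, OsMPK3 and OsWRKY53 were in the set, beside 0.801% of all tested OS loci. The study named these loci for their response in these same libraries, so this list is not independent evidence either. Nothing is read from its small counts, here or at 1 h. Differences at 1, 6, 12 and 24 h were 0.16, 0.37, 0.29 and 1.33 for OsWRKY24 and 0.32, 0.38, 0.49 and 1.13 for OsWRKY45, both WRKY transcription factors, so their 6 h means were under the limit. The calcium-dependent protein kinase (CDPK) at OS08G0441100 had 0.70, 0.83, 0.72 and 0.82 and was level from 6 h to 24 h. The CDPK at OS08G0540400 had 0.62, 0.69, -0.07 and 0.16, and the CDPK at OS12G0113500 had -0.50, -0.05, -0.48 and -0.48. At 1 h, limma-trend called 1 of the 8 higher, beside 1.77% of all identifiers, namely the calmodulin (CaM) locus OS03G0319300, with a difference of 0.48 (FDR 0.0234).

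The 163 genes also varied together between replicates of a time point, which the rule, made on means, did not use directly. After each time point mean was subtracted, the median correlation between pairs of these genes over the 20 libraries was 0.54, and 96.3% of pairs were above 0. It was 0.38 in the 141 loci high at 6, 12 and 24 h, 0.23 in the 248 loci high at 6 h alone and 0.05 in 3000 loci drawn from all tested OS loci. Genes of 1 library share its leaves, depth and scaling, and these correlations are descriptions. Without 6 h replicate 1 and 24 h replicate 1, the median over the 163 genes was 0.36.

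The mean deviation of the 163 genes from the time point mean was -0.80, 0.51, 0.28 and 0.01 in 6 h replicates 1 to 4 and -0.76, 0.42, 0.65 and -0.31 at 24 h. In 6 h replicate 1, 7 of the 163 genes were above their 6 h mean, and in 24 h replicate 1, 4 were above their 24 h mean, whereas 158 were above it in 24 h replicate 3. The 0 h replicates deviated by -0.42, 0.22, -0.21 and 0.41, and the 1 h and 12 h libraries by -0.13 to 0.11. The 12 JAZ loci, none of them in the set, deviated by -1.05, 0.73, 0.44 and -0.11 at 6 h and by -0.93, 0.41, 0.71 and -0.19 at 24 h. The 141 loci high at 6, 12 and 24 h deviated by -0.49, 0.42, 0.33 and -0.26 at 6 h and by -0.602, 0.3917, 0.3925 and -0.18 at 24 h. All 3 groups of loci had the same order of libraries at both times, so the low replicate 1 was not particular to the set.

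**Figure D5:**
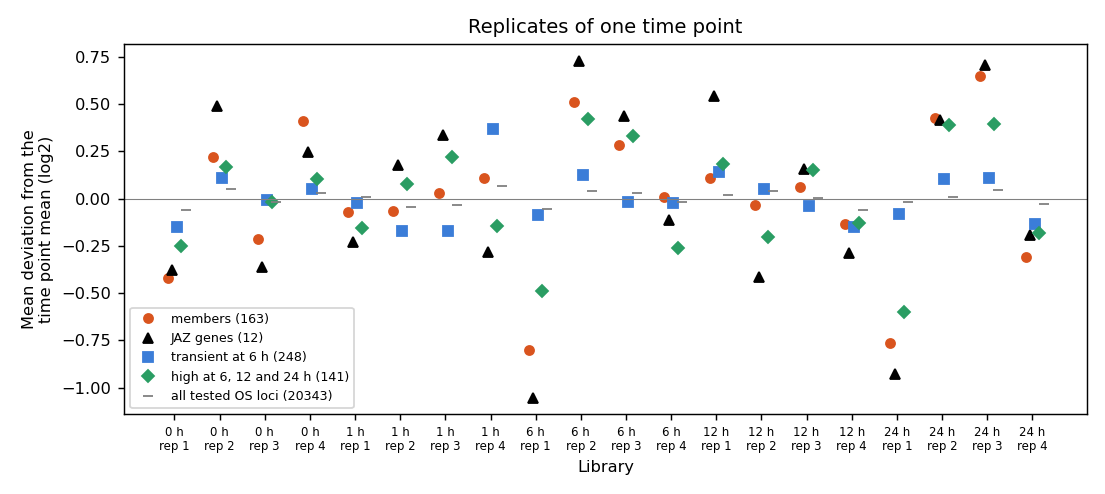
Mean deviation from the time point mean, in log2(FPKM + 1), in each of the 20 libraries for the 163 genes, the 12 JAZ loci, the 248 loci high at 6 h alone, the 141 loci high at 6, 12 and 24 h and all 20343 tested OS loci. The set and the JAZ loci are lowest in replicate 1 at 6 h (-0.80 and -1.05) and at 24 h (-0.76 and -0.93), where all tested OS loci are at -0.05 and -0.02.

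Single genes followed this mean deviation to different degrees. The correlation with it over 20 libraries had a median of 0.74 over the 163 genes and was at least 0.8 in 55 of them, the lowest being 0.11. For these values each gene enters the mean itself. With the gene itself left out of the mean, the correlation was 0.88 for the LOX at OS04G0447100, 0.87 for OsMPK3 and 0.76 for OsWRKY53. Outside the set it was 0.91 for AOC, 0.82 for the OPR at OS08G0459600, 0.76 for OsWRKY45 and a median of 0.77 over the 12 JAZ loci. Some other named loci did not follow it, with -0.18 for the OPR at OS01G0369900, -0.12 for the LOX at OS02G0194700, -0.20 for the acyl-CoA oxidase (ACX) at OS05G0163700 and -0.079 for the CDPK at OS12G0113500. These were the lowest of their families. The remaining ACX loci were at 0.62, 0.66 and 0.42, and the remaining CDPK loci at 0.65 and 0.26. The remaining LOX loci outside the set were at 0.49, 0.71 and 0.61. Of the other tested OS loci, 209 reached 0.8 and 20 were at -0.8 or below.

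Replicate spread was wide in the set. For 0, 1, 6, 12 and 24 h, the median SD over 4 libraries was 0.42, 0.24, 0.61, 0.32 and 0.67. Over all tested OS loci it was from 0.13 to 0.15. In the 248 loci high at 6 h alone it was 0.20 at 6 h and 0.22 at 24 h. The 141 loci high at 6, 12 and 24 h were also wide, at 0.30, 0.32, 0.43, 0.37 and 0.47 for the same times, above the set at 1 h and 12 h.

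Over the 20 libraries, all 163 genes averaged at least 10 fragments per library and 106 at least 100. At 0 h, the reference for every difference, 26 genes averaged under 10 fragments per library, and 4 had no more than 3 fragments over the 0 h libraries together. Mean FPKM had a median of 7.53, beside 9.09 over all tested OS loci, with 7 genes at 100 or more and 31 under 2. The median length behind the FPKM values was 1196 bases, beside 1453 bases.

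The identifiers place the genes on the rice chromosomes, with 35 on chromosome 1, 26 on chromosome 3 and 20 on chromosome 2. The share of tested loci was 1.2% on chromosome 1, 1.13% on chromosome 5, where there were 19, and 0.943% on chromosome 3, beside 0.801% over the genome. It was 0.191% on chromosome 11, where there were 2. Next to another gene of the set in identifier order stood 16 of the 163, in 8 pairs. This was 9.82% of the set, beside 8.51% of the loci high at 6, 12 and 24 h and 5.65% of those high at 6 h alone. The sets differ in size and no share over all loci was computed, so nothing is read from this share. Deviations within these pairs correlated at 0.68 to 0.979 over 20 libraries. In the pair at 0.979, mean FPKM was 121 and 127. Whether genes of any pair overlap or share reads was not tested. The strand setting of the counting is not given in the sources used here.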

How the data were processed

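Total RNA of rice leaves was sequenced in 20 libraries, 4 per feeding time. Per the paper's methods, reads with adapters, poly-N or poor bases were dropped by the authors, who mapped the remainder to the IRGSP-1.0 genome by HISAT2 and counted reads per gene with featureCounts, and the submitters' processing notes give versions 2.09 and 1.5.0-p3. The deposited values are FPKM, which the authors calculated from those counts and gene length, so a change in a few abundant genes can shift all other values of a library. The authors tested expression with DESeq2, which was not used here.

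A pseudocount of 1 was added to FPKM, and differences are between means of log2(FPKM + 1), which understates changes of low genes. limma-trend (limma 3.58.1, R 4.3.3) was fitted over all 20 libraries with 15 residual degrees of freedom and Benjamini-Hochberg adjustment over 24058 identifiers, and tested on simulated data with 200 changed genes. Python 3.11.15 with numpy 2.4.6 and pandas 2.3.3 gave the other values. Fragments were recovered as whole numbers from FPKM, to a tolerance of 0.01, for all 35755 identifiers above 0. Libraries held 17796563 to 22090181 fragments on genes, and depth limits precision mainly for genes with few fragments. Groups came from the sample titles, and p-values measure the spread between libraries of separate plants.

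The set of genes, the lists and the comparisons were chosen with earlier results of these data known. Named genes are those with an identifier in the paper's text or read from the labels of its figures, where single letters or digits may be misread, plus the gene with the largest value of the smaller of the 6 h and 24 h differences and the gene with the largest drop to 12 h. Other identifiers matched no name in the reference table used, so sequences, promoter motifs and leaf marker genes were not analysed here. Replicate numbers were not used to pair libraries, since same-numbered libraries of 0 h and 1 h correlated at 0.0085 to 0.0845 and those of all pairs of times at -0.165 to 0.242, the highest being replicate 1 of 6 h and 24 h. Alternatives were another pseudocount, other filters, median-of-ratios scaling, medians in place of means, limma-voom, a replicate block, only the 0 h and 1 h libraries, and each library left out.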

Additional observations from a re-analysis of the deposited data

Results flagged for a closer look

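OS03G0734500, the gene with the largest drop to 12 h, had 1 library far from the others at 12 h. Its FPKM was 0.595 in 12 h replicate 2 and 2.35, 2.52 and 2.09 in replicates 1, 3 and 4. The gap of replicate 2 to the nearest library was 0.838 of the whole range on the log2(FPKM + 1) scale, above Dixon's 95% critical value for 4 samples. Among 30 groups of 4 libraries examined this way it was the only one, and chance passes that value in about 1 in 20 groups.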

How the results depend on the processing

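The make-up of the set depended on single libraries. The number of genes was 163 as reported, from 118 to 208 when 1 library was left out, 234 with a pseudocount of 0.1 (112 shared with the 163), 111 with median-of-ratios scaling (all 111 shared), 171 with medians over libraries (121 shared), and 264 without both 6 h replicate 1 and 24 h replicate 1, an alternative added after the values were seen. The median 1 h difference of the genes was 0.51 with a pseudocount of 0.1 and from 0.24 to 0.48 without single libraries. Without single libraries the median 12 h difference was from 0.078 to 0.30, the 6 h median from 0.98 to 1.39 and the 24 h median from 0.96 to 1.35. As the rule chose genes high at 6 h and 24 h, nothing is read from those medians staying above 0. Genes called higher at 1 h numbered 3 as reported, 9 with only the 0 h and 1 h libraries, 6 with a pseudocount of 0.1 and from 0 to 4 without single libraries. With the replicate number as a block 2 were called higher and 0 lower, beside 1.68% and 1.15% of all identifiers. That block rests only on shared numbers, as 2 of 4 libraries at 0 h correlated best with their own number at 1 h. No alternative called a gene of the set lower at 1 h, beside 0.532% to 1.66% of all identifiers. The cause of these changes was not tested.

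With 4 libraries per time and a wide replicate spread at 6 h and 24 h, the limits of the rule fall inside the replicate error for many genes, and 23 of the 163 were kept under every alternative tried except the one added later.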
